A study of Mus musculus with 3 samples.

Results

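Among the small RNAs of mouse testis, 2436 distinct sequences of 29 to 31 nt started with T, had at least 200 reads and were absent from the table of mature sperm. They were chosen by that rule from 2592365 distinct testis sequences, and the rule also removed matches to tRNA, microRNA or rRNA. They were 24.6% of the 9919 candidates, the sequences that met the conditions on length, start and testis count. The other 7483 candidates had at least 1 sperm read and are called sperm-detected below. The study sequenced small RNAs of adult CD1 mice, an outbred laboratory strain, in 1 library each of mature sperm released from the cauda epididymis, whole adult testis and whole adult uterus. Per the labels' protocols, the sperm had been kept in a detergent buffer to lyse somatic cells. No agent, mutation or time point separates the groups, and the labels do not say how many animals gave each library. With 1 library per group no test between groups was made. The ranges in parentheses after shares are 95% limits for counting error alone. For shares of distinct sequences they treat the sequences as independent draws, which they are not. They are therefore too narrow to compare the members with the other candidates, and no difference is read from them. Reads are printed as DNA, so T stands for U. No genome sequence was used to place reads, and binding to a PIWI protein was not measured, so the members are named by length and start base alone.

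PIWI-interacting RNAs (piRNAs) are small guide RNAs of the germ line that direct PIWI proteins to transposon and other transcripts. In adult mouse testis most of them come from long precursor transcripts made in meiotic spermatocytes, and they mostly begin with U. MIWI, the PIWI protein of late meiotic and haploid germ cells, carries the longer of these RNAs, and MILI carries shorter ones. The 3′ end of a piRNA is trimmed and then methylated on its last ribose, a mark that protects it from added U bases and decay.

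The members below are the leading ones, by testis reads, with no variant 3′ end and a single annotated place for 10 genes that hold many members or are listed as piRNA precursors. They were read from the deposited tables and placed by GENCODE M21 transcripts. They are shown as examples of the class from genes that the results turn on. Capitals mark the first 20 bases, which were searched for in sperm.
Kctd7: TGATATGTAGGATCCCTCTCagatgtcaa
Cbl: TAGGAATGCATGGAAGACTTggttcttgt
Asb1: TAATAAATCTGTTTAGACTTttggccataa
1700006A11Rik: TATTACTCACATGACTGCTTacgctttatc
Gm21269: TGGGAGCTCGTGGACGATGAcagcgccat
Gm10619: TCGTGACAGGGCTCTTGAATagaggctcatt
Gm2762: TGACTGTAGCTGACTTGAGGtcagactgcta
1700001L05Rik: TGGGATCTATGTTCATTTCTgatactcgg
Gm21388: TCACAACCTTAGTGAACTTGttgacgcta
4933440M02Rik: TCTCAGTCCGTACCAGGTAGagaccagatc

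The members held 1224321 testis reads, or 5.15% of the library (5.14 to 5.16%), and the sperm-detected sequences held 35.8% (35.78 to 35.81%). They made up 7.76% of the reads of all 29 to 31 nt testis sequences that start with T. Most members were of modest abundance. The lowest had 200 testis reads, the median 336 and the highest 8057, against a median of 454 and a highest value of 125865 for the sperm-detected sequences. Of the members, 219 had 1000 reads or more.

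Absence from sperm was the rule itself, so it is described and not tested. Among all 9919 candidate sequences 24.6% were absent. The share fell with abundance, from 33.2% of the 3078 sequences with 200 to 299 testis reads to 14.1% of the 1154 with 1000 to 1999 and 1.64% of the 244 with 5000 or more. A count of 0 in sperm allows up to 3 reads, or 0.191 RPM (reads per 1000000 reads of the library). The smallest member was therefore at least 44.0-fold lower in sperm than in testis, the median member at least 73.9-fold and the largest at least 1772-fold. Sperm-detected sequences were themselves lower in sperm, with a median ratio of sperm to testis RPM of 0.0238, and 2266 of them (30.3%) had 1 to 3 sperm reads. Counts of 0 and of 1 to 3 reads differ by no more than this floor.

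**Figure D1:**
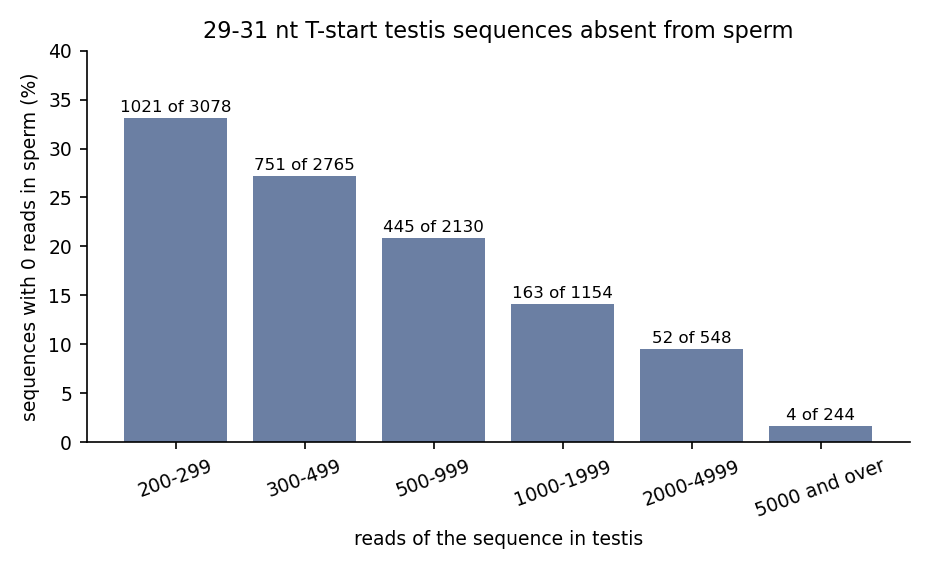
Share of candidate sequences (29 to 31 nt, T start, at least 200 testis reads) with 0 reads in sperm, in %, by the number of reads in testis. Labels give absent and total sequences. The bars fall from 33.2% in the lowest class to 1.64% in the highest.

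The values at the limits of the rule ran on without a gap. At the minimum of 200 testis reads stood 15 members, and 10 sequences absent from sperm had 199. The 3 most abundant sequences with a single sperm read had 8108, 7877 and 5646 testis reads.

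The 10 most abundant members had 4018 to 8057 testis reads each and none in sperm or uterus. Their first 20 bases began 0 to 83 sperm reads, with a median of 3. The leading member, of 30 nt with 8057 testis reads, made up 83.6% of the 9632 testis reads with its first 20 bases, and no sperm read began with those bases. The second, of 29 nt, had 5506 testis reads, and its first 20 bases began 7112 reads in testis and 3 in sperm. The fourth, of 31 nt with 5367 testis reads, was a minor form, 14.4% of the 37257 testis reads with its first 20 bases, which began 83 sperm reads. Of these 10 only the tenth, in Kctd7, matched an annotated transcript.

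For most members some sperm read began with the same first 20 bases and differed after them in length or bases. Of the 2436 members, 1904 (78.2%, 76.5 to 79.8%) shared their first 20 bases with at least 1 sperm read. Those reads were few: 679 members had 1 to 3, 763 had 10 or more and 130 had 100 or more, with a median of 4 over all members. For the sperm-detected sequences the median was 50, their own reads included. Over the 1896 different starts of the members, 71829 sperm and 5794146 testis reads began alike, which puts sperm 53.2-fold below testis per library total. A single start gave 14196 of these sperm reads, so the value leans on it. Over the 4557 starts of the sperm-detected sequences sperm was 13.5-fold below testis, with at most 25348 of 627411 sperm reads from 1 start. Of the members, 1006 share their start with a sperm-detected sequence. Since sperm counts chose both groups, this difference is a description.

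The leading sperm form was usually shorter than the member. Only 57.8% of all members had a sperm form with 2 or more reads. Ties in reads were settled by letter order, so the leading form is then arbitrary. The leading form was shorter for 1209 of the 1904 members with a form (63.5%), longer for 520 (27.3%) and of the same length for 175 (9.19%). The most frequent case was a form 1 base shorter, with 447 members, followed by 1 base longer, with 320. Over the shared length its bases were those of the member for 1575 members and differed for 329. Among reads with a member's first 20 bases, 25.1% were under 29 nt in sperm and 11.4% in testis. Reads of 29 to 31 nt made up 69.8% in sperm and 79.7% in testis, and longer ones 5.13% and 8.83%. The shift to shorter forms was also present for the sperm-detected starts, with 18.4% of reads under 29 nt in sperm and 13.6% in testis. The identical 29 to 31 nt form was excluded from sperm for members, so the sperm lengths are in part set by the rule. They also lean on a single start, which gave 14196 of the 71829 sperm reads, 9354 of them as 1 form of 31 nt.

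**Figure D2:**
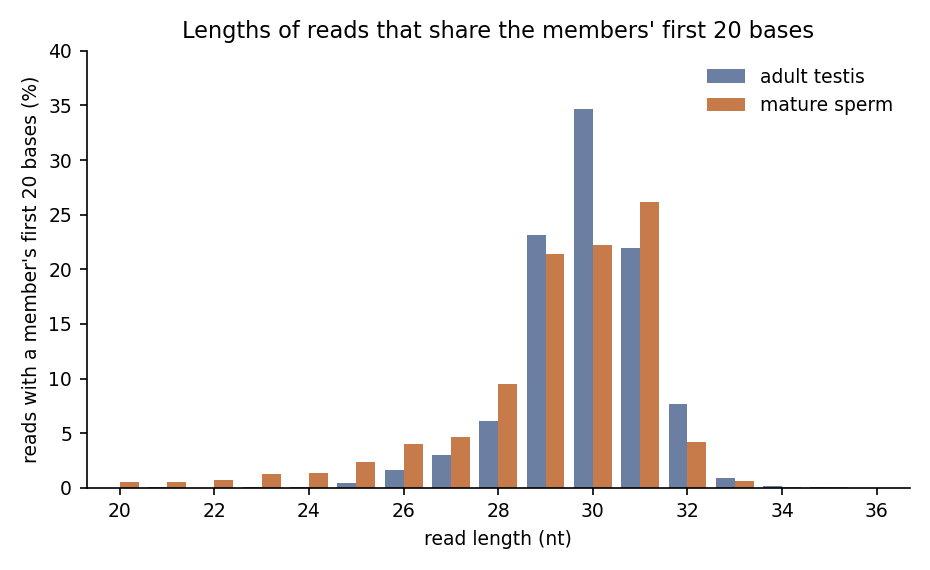
Length in nt of reads that begin with the first 20 bases of a member, as % of such reads in testis (5794146 reads) and sperm (71829 reads). Sperm has more of its reads under 29 nt, 25.1% against 11.4% in testis. A single form of 31 nt gave 9354 of the sperm reads.

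For 532 members (21.8%) no sperm read had the same first 20 bases. These had 200 to 8057 testis reads with a median of 320, and 30 of them reached 1000. In 350 of the 532, bases 6 to 25 were found within some sperm read, which then did not begin with the member's first 20 bases. Whether such reads have another 5′ end, differ in their first bases or come from another place was not checked. For 182 members neither the first 20 bases at a read start nor bases 6 to 25 were seen in sperm. Members without a sperm form also came from smaller families of testis forms, with a median of 730 reads per start against 1607 for members with a form.

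The members were slightly richer in T and C and poorer in A and G than the sperm-detected sequences. Over all bases, T made up 29.7% of the members and 26.4% of the sperm-detected sequences, and C 17.7% and 15.7%. A made up 29.2% and 31.3%, and G 23.4% and 26.6%. From position 2 to 29 the T share was higher in the members at 26 of 28 positions and the C share at 25, and the A share was higher at 1. Median GC content was 41.4% and 41.9%. By GC class the absent share was 32.7% for the 373 candidates under 30% GC and 18.99% for the 1385 at 50% or more, with median testis counts of 385 and 401. A at position 10, the base that ping-pong partners of U-start piRNAs carry, stood in 31.4% of members (29.6 to 33.3%) and 33.97% of sperm-detected sequences. At positions 9, 11 and 12 the share of A in the members was 25.4%, 30.7% and 33.7%, so position 10 did not stand out. In length, 29 nt made up 26.8% of the members, 30 nt 45.6% and 31 nt 27.7%. In the sperm-detected sequences the shares were 30.9%, 44.7% and 24.4%.

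The bases differed most near the 3′ end. The next-to-last base was G in 21.7% of the members and 44.1% of the sperm-detected sequences, the widest gap of any base and position compared. It was T in 33.8% and 22.4%. The last base was T in 50.1% of the members and 38.7% of the sperm-detected sequences, and G in 6.94% and 15.02%. Read from the other side, 29.6% of the candidates that ended in T and 27.7% of those that ended in A were absent from sperm, against 18.1% for C and 13.1% for G. The candidates ending in T and in G had median testis counts of 402 and 434. In each of 4 abundance classes from 200 to 1999 testis reads, candidates ending in T were absent more often than those ending in G. The shares were 40.4% against 17.7% in the lowest class and 16.3% against 4.52% in the highest. Those ending in A stood at 35.9% in the lowest class and, above T, at 18.9% in the highest. Those ending in C stood at 24.4% and 11.3%. Sequences that overlap or differ by 1 base at the end are not independent, so no test was made.

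**Figure D3:**
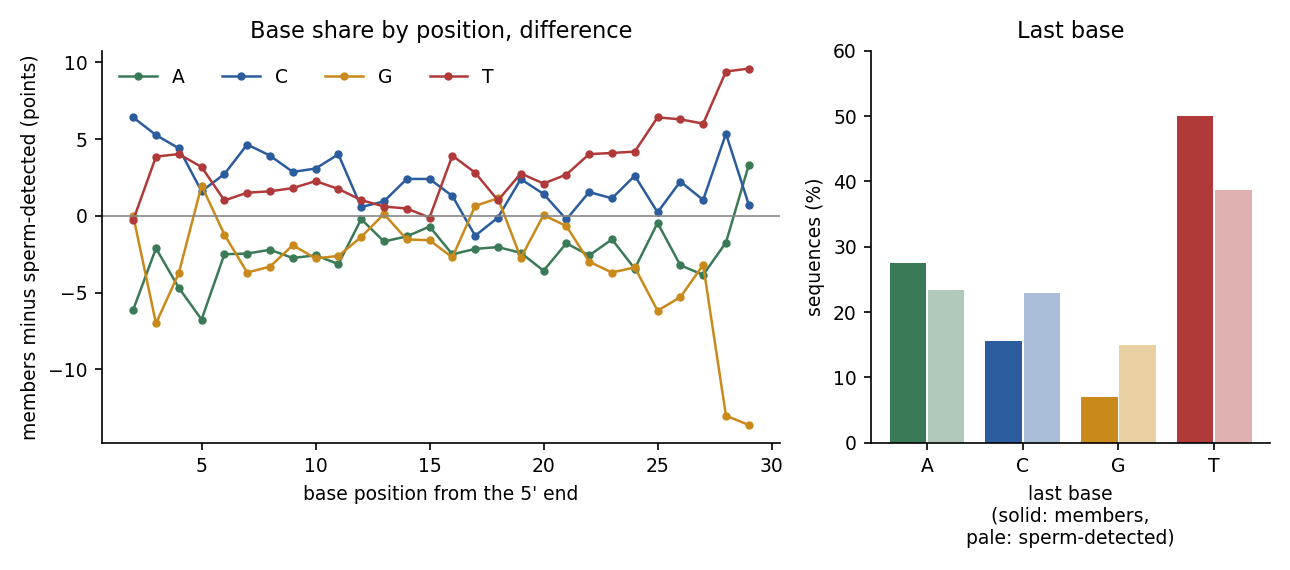
Left, the share of each base in the members minus its share in the sperm-detected sequences, in percentage points, at positions 2 to 29 from the 5′ end. Right, the last base in % of sequences: T ends 50.1% of members and 38.7% of sperm-detected sequences, and G 6.94% and 15.02%.

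Some members ended in bases that most testis reads of the same family do not carry. A variant 3′ end was counted where the last 1 to 3 bases of a sequence were carried by under 50% of the testis reads that share all earlier bases and reach that position. By this measure 382 members (15.7%, 14.3 to 17.2%) and 853 sperm-detected sequences (11.4%, 10.7 to 12.1%) had a variant end. In the members the end was T or TT in 293, a single A in 53, a single C in 8 and a single G in 7. Of the candidates with a variant end of T or TT, 34.1% were absent from sperm, against 28.2% for A, 12% for C or G and 23.6% without a variant end. The group without a variant end pools all last bases. Over all candidates the absent share was 29.6% for a last T, 27.7% for A, 18.1% for C and 13.1% for G. How much of the gaps between kinds of end goes with the last base alone was not tested. In each of the 4 abundance classes the candidates with a variant end were absent more often than those without, by 40.1% against 31.8% in the lowest class and 21.8% against 20.7% for 500 to 999 reads. The 382 sequences without their variant bases were all found as testis sequences, and 265 of them (69.4%) were found in sperm. By a wider measure, a form shortened by 1 to 5 bases was in sperm for 61.9% of all members and 89.8% of sperm-detected sequences. Sequences without a variant end also differed in their last base. It was T in 44.6% of these members and 34.7% of these sperm-detected sequences, and G in 7.90% and 15.97%.

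**Figure D4:**
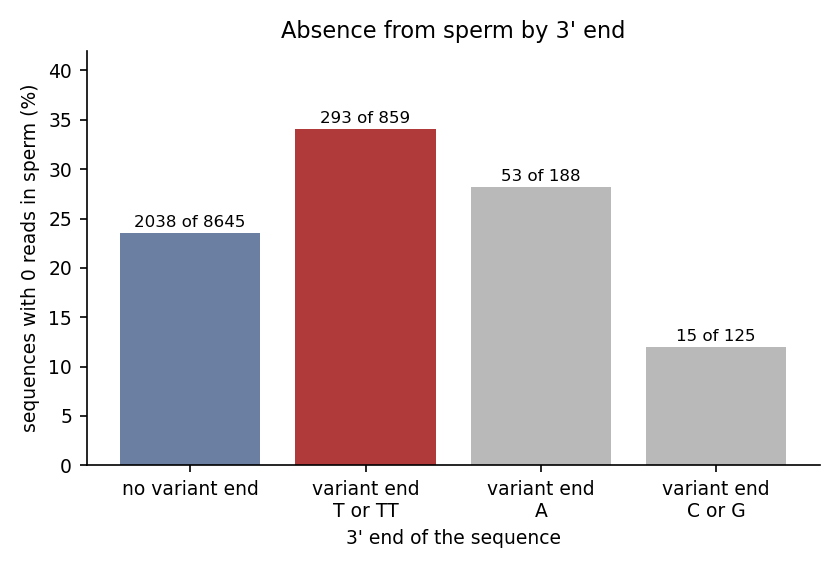
Share of candidate sequences with 0 reads in sperm, in %, by the kind of 3′ end. Labels give absent and total sequences. Ends of T or TT stand at 34.1%, sequences without a variant end at 23.6% and ends of C or G at 12%. The bar without a variant end pools all last bases.

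Annotated transcripts were a second reference for the 3′ ends. Of the members, 216 matched a transcript in sense from end to end, and 62 more matched except for their last 1 to 3 bases. These 62 made up 22.3% of both together (17.5 to 27.7%), against 15.4% (13.0 to 18.1%) for the sperm-detected sequences, and the differing bases were only T in 60 of them. For the sperm-detected sequences this held for 119 of 124. The labels do not give genotypes of the outbred mice, so a base that differs from the annotation in these animals and a base added to the RNA cannot be told apart for a single sequence.

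The forms below show members with such an end in 4 genes, with variant bases in capitals. Forms without it are printed for Gm49794 and Gm21269 only.
Gm49794, leading testis form: tcggaacttgtatcttgtgagacagaagg
Gm49794, leading sperm form: tcggaacttgtatcttgtgagacagaaggg
Gm49794, member: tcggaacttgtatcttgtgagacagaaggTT
Gm21269, leading testis form: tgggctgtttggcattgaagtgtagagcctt
Gm21269, leading sperm form: tgggctgtttggcattgaagtgtagagc
Gm21269, member: tgggctgtttggcattgaagtgtagagcT
Gm21388, member: tagcaagacggatagagtatgtgactggcT
Cbl, member: tcaattggttgagtgtttgtctggcattT
The leading Gm49794 form, at chr17:27355734-27355762 on the plus strand (GRCm38, noncoding exon), had 26900 reads in testis and 492 in sperm. The form 1 base longer had 8306 and 719, and the member with TT had 269 and 0. The leading testis form of the Gm21269 family, at chr7:73825043-73825073, plus strand, had 23245 reads in testis and 2 in sperm. The 28 nt form had 1159 reads in testis and 290 in sperm, and the same form with T had 352 and 0. The stem of the Gm21388 member, at chr3:34875224-34875252, plus strand, had 4982 and 73 reads, and the member 969 and 0. In Cbl, which encodes a ubiquitin ligase, the stem at chr9:44149033-44149060, minus strand, had 2345 and 6 reads, and the member 1056 and 0. The 0 of each member is set by the rule, and these 4 cases were chosen after their values were seen, with a stem in sperm. In Nemp1, also named after its values were seen, the stem had 1313 reads in testis and 0 in sperm, and the member with T had 1348 and 0. In 38 variant-end members the stem had 1 annotated place and the end differed from the transcript there. The variant bases were T or TT in all 38, and the form without them was in sperm for 27. In 15 of the 38 the member had more testis reads than the form without the variant bases, unlike in the 4 cases above. Variant ends that match the transcript are outside this count. An example is the leading Gm5878 member, of 31 nt with 652 testis reads, which ends in A.

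Few members could be tied to an annotated gene. An exact sense match to a GENCODE transcript was found for 216 members (8.87%, 7.77 to 10.1%) in 73 genes and for 681 sperm-detected sequences (9.10%, 8.46 to 9.78%). Another 67 members matched in antisense only and 5 only a promoter window, which left 2148 members (88.2%) unplaced. Of the 216, 143 lay in noncoding RNA genes, 71 in protein-coding genes and 2 in other genes. Of the sequences in coding genes 28.3% were absent from sperm, and of those in noncoding genes 22.6%, beside 24.6% over all candidates. In coding genes 51 of 71 members and 130 of 180 sperm-detected sequences lay in 3′ UTRs, which are similar shares. In coding sequence lay 18 and 38, and in 5′ UTRs 1 and 9.

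Many placed members came from a few genes. The 8 genes with most members held 104 of the 216, and each also gave sperm-detected sequences. Gm21269, a lincRNA of chromosome 7, gave 21 members and 77 sperm-detected sequences, and 20 of the 21 members had a sperm form with the same first 20 bases. Gm49794, a lincRNA of chromosome 17, gave 18 and 49, and Gm5878, a lincRNA of chromosome 6, gave 12 and 40. Gm2762 gave 10 and 12, so 45.5% of its sequences were absent. 1700006A11Rik, a protein-coding gene of chromosome 3, gave 17 and 29. 1700001L05Rik gave 11 and 26, Gm21388 gave 8 and 25, and 4933440M02Rik gave 7 and 29. Among the 25 genes with at least 10 candidates the absent share ran from 11.1% to 54.5%, with a median of 23.1%. The highest was Ago2, which encodes the Argonaute protein that carries microRNAs, with 6 members and 5 sperm-detected sequences; it was named after its values were seen. In antisense, Gm42811, also named after its values were seen, gave 14 members and 17 sperm-detected sequences.

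**Figure D5:**
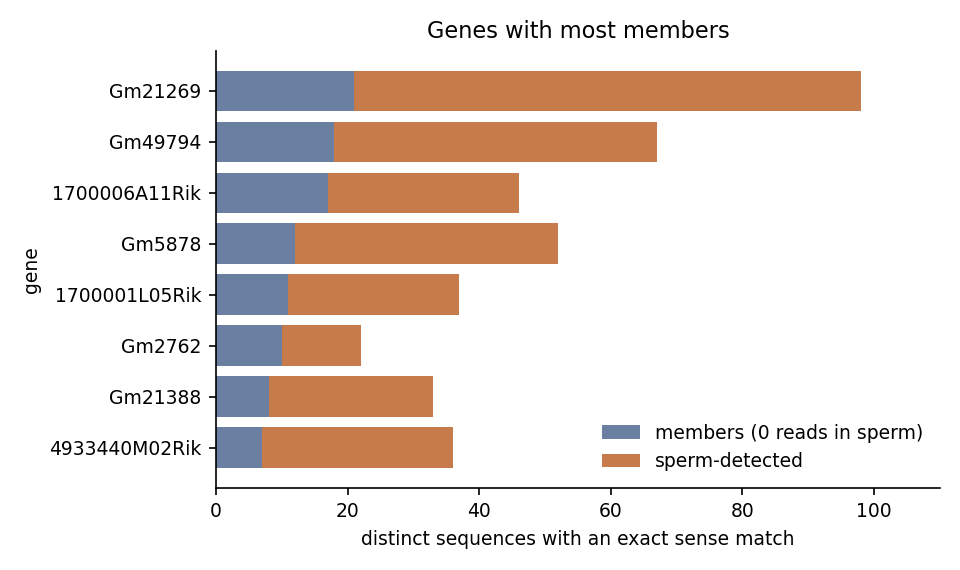
Number of distinct sequences with an exact sense match to each of the 8 genes with most members, split into members and sperm-detected sequences. Gm21269 has 21 members and 77 sperm-detected sequences, Gm2762 has 10 and 12.

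Of 11 listed piRNA precursor genes, 7 held members, 77 in all beside 239 sperm-detected sequences. The leading member of Kctd7, which encodes an adaptor of a ubiquitin ligase, had 4018 reads in testis, 0 in sperm and 0 in uterus, at least 884-fold lower in sperm. It lies in the 3′ UTR at chr5:130153371-130153399, plus strand, and its first 20 bases began 22037 testis and 83 sperm reads. The leading member of Cbl had 3302, 0 and 0 reads, at least 726-fold lower in sperm, and lies in the 3′ UTR at chr9:44146723-44146751, minus strand. A single sperm read began with its first 20 bases, against 4283 in testis.

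In Asb1, which encodes an ankyrin repeat protein, the leading member had 1371, 0 and 0 reads and lies in the 3′ UTR at chr1:91556056-91556085, plus strand. That of 1700006A11Rik had 1558, 0 and 0 reads and lies in the 3′ UTR at chr3:124406407-124406436, minus strand. That of Gm21269, with 1259, 0 and 0 reads, lies in exon 1 at chr7:73819967-73819995, plus strand, and its first 20 bases began 40 sperm reads. That of Gm10619, with 922, 0 and 0 reads, lies in exon 6 at chr7:73783040-73783070, minus strand. The 0 in sperm is set by the rule, and the 0 in uterus is not. Cbl gave 6 members and 18 sperm-detected sequences, Asb1 gave 5 and 28, Gm10619 gave 7 and 28, and Kctd7 gave 3 and 7. The other listed genes had no member: Ip6k1 had 3 sperm-detected sequences, Elk4 and Phf20 had no candidate, and 1700016M24Rik was not analysed here.

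For genes outside the list, the leading one of Gm2762 had 1853, 0 and 0 reads in testis, sperm and uterus and lies at chr13:53402629-53402659, plus strand. That of Gm21388, at chr3:34875260-34875288, plus strand, had 1223, 0 and 0 reads, and no sperm read began with its first 20 bases. That of 1700001L05Rik, at chr15:83354968-83354996, minus strand, had 1326, 0 and 0 reads and 10 sperm reads with the same start. That of 4933440M02Rik, at chr7:125330678-125330707, minus strand, had 534, 0 and 0 reads and 3 such sperm reads. The last 4 lie in noncoding exons.

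Positions on the transcripts allowed a look at the neighbours of the placed members. The base after the member's 3′ end was T for 19.2% of 214 members and 26.2% of 669 sperm-detected sequences, against a mean of 27.1% and 25.9% at the next 10 positions. A testis read of 24 to 33 nt began right after the 3′ end for 23.8% of members, close to the mean of 22.8% at the next 10 positions. Antisense testis reads that overlap the member's 5′ end by 10 nt, the distance of ping-pong pairs, were found for 7 of 216 members (3.24%). At the other overlaps from 1 to 20 nt they were found for 0 to 4. For the sperm-detected sequences 19 of 678 had such reads at 10 nt (2.80%), and 0 to 10 at the other overlaps. At any overlap from 1 to 20 nt there were antisense reads for 19 of 216 members (8.80%) and 46 of 678 sperm-detected sequences (6.78%).

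The members are not independent of one another. Of the 1896 starts, 322 gave 2 members and 100 gave 3 or more, up to 6. When members that share any 20 bases are joined, 1571 groups remain, of which 1062 hold a single member and the largest holds 9.

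Uterus, a tissue without germ cells, had no read of any member. A count of 0 allows up to 0.189 RPM there. Only 0.421% of uterus reads were 29 to 31 nt long, against 72.0% in testis and 35.8% in sperm, so few uterus reads were of this length. The library totals were alike, with 15876066 reads in uterus and 15690722 in sperm. Over all candidates 100% had 0 uterus reads after rounding, with 2 exceptions among 9919, both sperm-detected. The first 20 bases of 2 members began 1 uterus read each.

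The libraries held 23783785 reads for testis, 15690722 for sperm and 15876066 for uterus. Of the 4 microRNAs listed as markers of male germ cells and testis, 3 were matched, and they summed to 205 RPM in testis, 5.67 in sperm and 8.25 in uterus, with 1 of the 3 at 0 in uterus. The 4 epithelial markers summed to 0.631 RPM in testis and 2542 in sperm, and the 2 leukocyte markers that were matched to 0.0420 and 7.14. The smooth muscle and stroma list had 1 matched marker, miR-199a-3p, with 687 reads in testis, 376 in sperm and 458582 in uterus. The part of other cells in the absence of members from the sperm library was not tested. In these bulk libraries fewer cells of a type and less RNA per cell cannot be told apart.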

How the data were processed

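Per the labels' protocols, libraries were made by ligating adapters to small RNA, followed by RT-PCR. The deposited tables list distinct read sequences of 18 to 44 nt with raw read counts, which the authors did not normalize as far as the values show. The genome build mm9 is named in the submitters' processing notes; no source used here gives the trimming or the tools. The sperm and testis tables each hold 1 line without a sequence, which was left out. Reads amplified by PCR without molecular identifiers are not independent molecules.

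No count was rescaled before matching. Testis had 23783785 reads, uterus 15876066 and sperm 15690722. Candidates were testis sequences of 29 to 31 nt that start with T and have at least 200 reads. A candidate was removed if it matched a structural RNA exactly, with 1 substitution or with 1 to 3 bases deleted, as a whole or without its last 1 to 3 bases, or if it shared its first 20 bases with a tRNA read. References were GENCODE M21 microRNAs, rRNAs and 22 mitochondrial tRNAs, 1005 RefSeq hairpins (GRCm38.p6), 13 nuclear tRNA genes that lie within a transcript or promoter window and 243 sperm reads of at least 1000 counts that carry a tRNA A box. Most nuclear tRNA genes and the full 45S rRNA were not used, so the filter is incomplete; it removed 9 sequences absent from sperm (8 tRNA and 1 microRNA) and 88 others.

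Candidates were matched to GENCODE M21 transcripts (GRCm38), with no genome sequence; no coordinate was converted to mm9. Sequences are printed where an annotated transcript gives 1 place. Shares have exact Clopper-Pearson intervals, ratios conditional exact binomial intervals. A count of 0 was taken as at most 3 counts per library. With 1 library per group no test was run. The members and the lists were chosen with earlier results of these data known. Named items are the 10 members with most testis reads, those at the limits of the rule, the 5 with most sperm reads of the same first 20 bases, the 8 genes with most members and 11 listed precursor genes. Alternatives changed the count minimum, sperm limit, lengths, filter, number of shared bases, match rule and weighting. The measure of variant 3′ ends and its alternatives were added after the data were seen. Matching, placing and the measure of variant ends were tested on simulated data. Python 3.11.15, numpy 2.4.6, scipy 1.17.1, numba 0.67.0 and matplotlib 3.10.9 were used.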

Additional observations from a re-analysis of the deposited data

How the results depend on the processing

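Of 30 alternatives over 9 results, 12 left the value within its interval or, for a number of members, within 1.5 times. With a testis minimum of 100 reads there were 5726 members with 7.05% of testis reads, 43.0% of them of 30 nt and 18.3% with a variant 3′ end. With 500 reads there were 664 with 2.90% of reads; 81.6% had a sperm form with the same first 20 bases, 7.53% an exact gene match and 10.4% a variant end. Allowing 1 read in sperm raised the share of testis reads to 7.61%. A sperm form was found for 75.4% of members with the first 24 bases and for 57.8% when it needed 2 reads. The RPM ratio of sperm to testis over the members' starts, 0.0188, was 0.0182 with 24 bases and 0.0183 for reads of 26 to 31 nt. Gene matches rose to 11.5% with 1 substitution and 11.6% on either strand. Weighting by testis reads gave a variant end for 12.4%. With the first 20 bases in place of the whole sequence, 2 members had uterus reads. The filter on structural RNA moved the number of members little. No paired analysis was possible because each group has 1 library. Counts near 200 limit what a sperm count of 0 can show, and the gene results rest on the members that annotated transcripts place.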

Other observations

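The 5 members whose first 20 bases had most sperm reads were all minor testis forms with a variant 3′ end of 1 to 3 bases. The first, of 31 nt, had 204 testis reads among 234763 with its start, and 14196 sperm reads shared that start, 9354 of them as the leading sperm form. The second, of 30 nt, had 1432 of 42935 testis reads, and 2688 sperm reads shared its start. The third, the Gm49794 form with TT, had 269 of 48833 testis reads and 1781 such sperm reads. The fourth and the fifth share a start with 6888 testis and 1426 sperm reads, and had 443 and 433 testis reads. Both the many sperm reads of the start and the 0 sperm reads of the member follow from how these 5 were chosen. Of the 8 sequences absent from sperm that were removed as tRNA, 4 matched only without their last 1 to 3 bases and 2 only by their first 20 bases.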
